A study of Mus musculus with 6 samples.

Results

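A set of 42 genes that repair DNA double-strand breaks and interstrand crosslinks was followed in mouse blastocysts. The genes were listed by name for their function, with earlier results of these data known, and all 42 were found among the 28879 genes of the deposited table. The RNA-Seq data compare 3 libraries of fresh blastocysts (Fresh) with 3 libraries of vitrified–warmed blastocysts (Cryo). The donor females were C57BL/6JNarl mice of 6 to 8 weeks according to the sample labels, while the series text gives B6CBF1 embryos, and embryos of both groups were cultured for 3 days, in human tubal fluid. The vitrified–warmed embryos had in addition been frozen with the Cryotech Vitrification Kit and warmed. All 3 libraries of a group are portions of a single embryo pool, so p-values measure the spread between portions of 1 pool, and the difference between groups cannot be told apart from a difference between the 2 pools. The libraries hold whole blastocysts, in which fewer cells of a type and less RNA per cell cannot be told apart.

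A double-strand break severs both strands of the helix, and a crosslink ties them together so that a replication fork cannot pass. Cells rejoin broken ends directly by end joining, or copy the lost sequence from the sister chromatid by homologous recombination, which starts from resected ends. The Fanconi anemia proteins recognise crosslinks at stalled forks and hand them over to recombination. Blastocyst cells divide fast, and mouse embryos without Atr, Chek1 or Brca2 die early in gestation.

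The libraries held 9093411 to 11843562 exon fragments, of which the 42 genes took 0.222% to 0.224% in Fresh and 0.216% to 0.226% in Cryo. Fresh 1 had fragments for 20086 genes, Fresh 2 and Fresh 3 for 15558 and 15991, and the Cryo libraries for 17563 to 17764. The library totals behind the FPKM values were worked back from the counts, the FPKM values and the exon lengths. Exon fragments made up 63.2% to 63.6% of these totals in Fresh and 54.4% to 56.6% in Cryo. These are shares in exons only if the deposited FPKM values were not rescaled, which was not checked. Markers of trophectoderm, epiblast and primitive endoderm were present, with 7 of 8, 6 of 6 and 3 of 6 listed genes above a mean of 0.5 FPKM (fragments per kilobase of exon length, scaled to the size of the library). The summed level of the epiblast markers was 164 to 169.7 FPKM in Fresh and 145 to 153 FPKM in Cryo, and that of the primitive endoderm markers 31.5 to 32.4 FPKM and 36.5 to 41.4 FPKM, with no overlap in either list, while the trophectoderm markers overlapped at 482 to 493 FPKM and 485 to 507 FPKM. None of 15 listed markers of cumulus cells, oviduct or sperm reached that level. Of 6 blood and immune markers, 3 did, and the list summed to 2.97 to 3.77 FPKM in Fresh and 10.9 to 14.5 FPKM in Cryo. Of 6 oocyte genes, 4 did, and the list summed to 5.04 to 5.40 FPKM in Fresh and 2.88 to 4.47 FPKM in Cryo. All these FPKM sums are not corrected for the lower derived exon share in Cryo, so which lists overlap between the groups depends on this scaling. On the log2(FPKM + 0.5) scale, the median log2 fold change over all genes tested was -0.13. The part of these cells, transcripts and exon shares in the results was not tested.

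Repair genes changed in both directions between fresh and vitrified–warmed blastocysts. A pair of strand exchange genes whose proteins bind each other, Xrcc3 and Rad51c, rose 13.9-fold and 7.02-fold, while Fancf, Palb2, Lig4, Fancl, Rad52 and Prkdc fell between 1.61-fold and 4.31-fold. Of the other 34 genes, only Fancc, at a mean of 0.445 FPKM, was called with a change past 1.5-fold. Levels are given as CPM, fragment counts scaled to library size after TMM normalization. The test was edgeR's quasi-likelihood test, and Benjamini–Hochberg adjustment ran over the 12774 genes that passed edgeR's filter on low counts. All 42 genes passed that filter. At an adjusted p under 0.05, 12 of 42 (28.6%) were higher and 18 of 42 (42.9%) lower in vitrified–warmed blastocysts, 71.4% in all, where 31.6% of all genes tested were higher and 32.8% lower, 64.4% in all. With at least a 1.5-fold change and a mean above 0.5 FPKM as well, 2 genes (4.76%) were higher and 6 (14.3%) lower, against 9.07% and 11.5% of all genes tested. The median log2 fold change was -0.053 over the 42 genes and -0.0011 over all genes tested, and the median size of the change was 0.41 and 0.43. In 33 of 42 genes (78.6%) the libraries of the groups did not overlap, against 68.6% of all genes tested. The vitrified–warmed libraries were above in 13 genes and the fresh libraries in 20, against 33.5% and 35.1% of all genes tested. On unscaled FPKM values tested with limma as log2(FPKM + 0.5), the median over all genes tested was -0.13. There 6 repair genes were called higher and 21 lower, and over all genes 2647 and 5542 in place of 4034 and 4188.

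**Figure D1:**
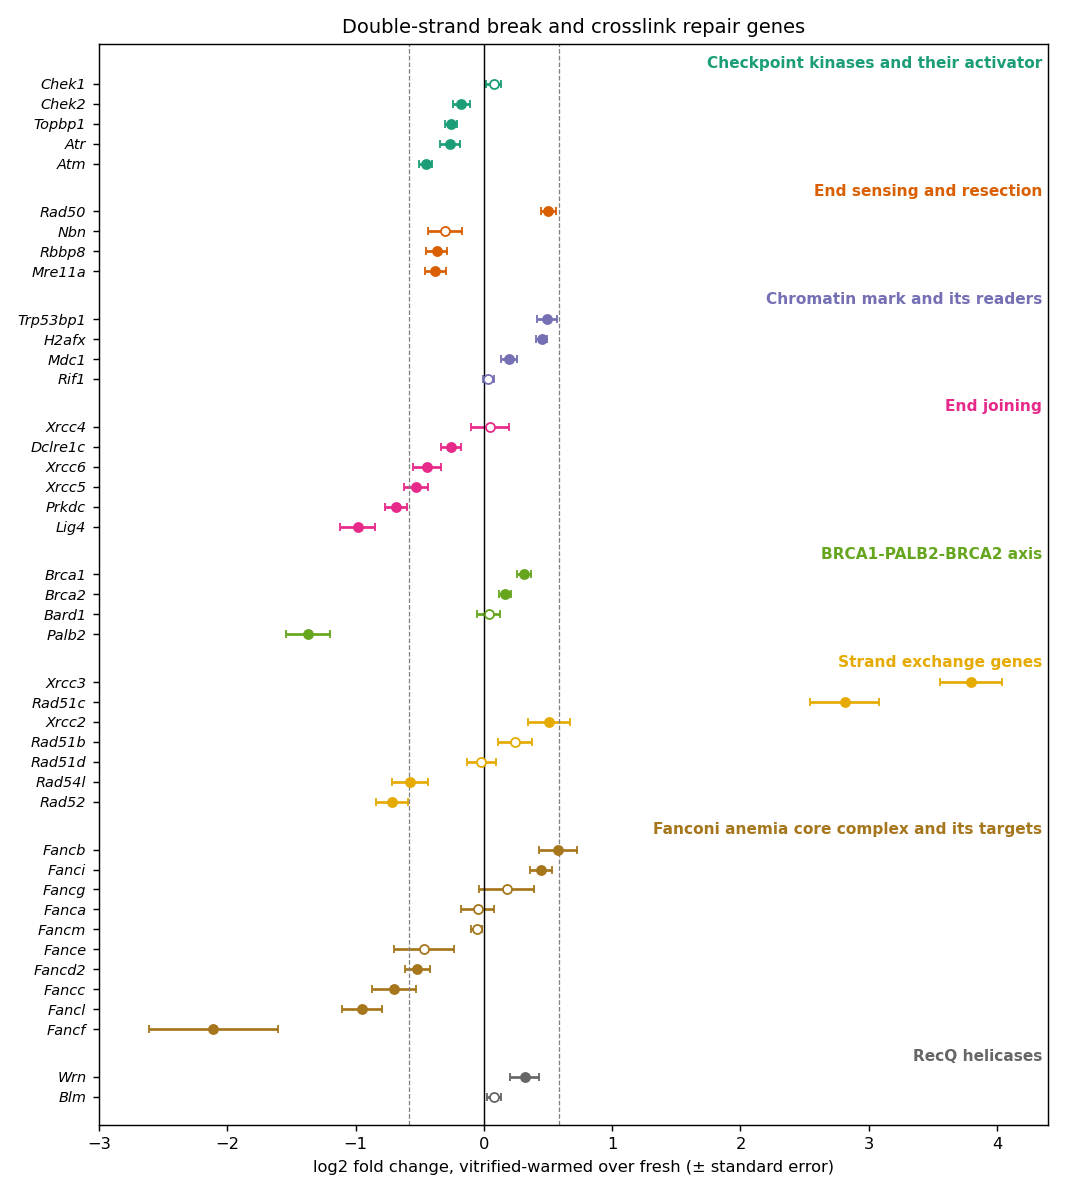
Log2 fold change of the 42 repair genes between vitrified–warmed and fresh blastocysts, with the standard error as bars, grouped by role. Filled points passed the test at an adjusted p under 0.05, open points did not, and the dashed lines mark a 1.5-fold change. Xrcc3 at 3.8 and Rad51c at 2.81 stand to the right of all other members, and Fancf at -2.11 to the left.

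Among the checkpoint kinases that signal DNA damage and their activator Topbp1, 4 of 5 genes were called lower and none higher, where 32.8% of all genes tested were lower and 31.6% higher. The call of Chek2 held in 6 of 14 alternative settings. Topbp1, which activates the ATR kinase, was the most abundant of the group at 18 FPKM. It read 173, 182 and 178 CPM in the fresh libraries and 150.2, 139.7 and 156 CPM in the vitrified–warmed libraries. The groups did not overlap, with a change of -0.26 ± 0.047 on the log2 scale (standard error) and an adjusted p of 1.88e-04 in edgeR. Atm, the kinase that answers to double-strand breaks, read 206, 204 and 202 CPM in the fresh libraries and 150.2, 138 and 158 CPM in the vitrified–warmed libraries. All 3 vitrified–warmed libraries lay well below the fresh libraries, and the log2 fold change was -0.45 (adjusted p = 8.88e-07 in edgeR). Atr, the kinase for single-stranded DNA at stalled forks, fell by 0.26 on the log2 scale (adjusted p = 0.0084 in edgeR). Its vitrified–warmed libraries spread from 53.2 to 69.1 CPM, below the fresh range of 75.1 to 76.1 CPM. Of the kinases they activate, Chek2, which follows ATM, had a log2 fold change of -0.17 (adjusted p = 0.0261), and Chek1, which follows ATR, had 0.075 (adjusted p = 0.293) and did not pass the test. The call of Chek2 was lost without Fresh 1, Fresh 2, Cryo 1 or Cryo 2 (adjusted p = 0.0748, 0.0772, 0.089 and 0.052), and also with DESeq2, with scaling to housekeeping genes, with only genes above 1 FPKM and after a correction for exon length.

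Of the proteins that find broken ends and trim them, Rad50 rose while its partner Mre11a fell. Rad50, the ATPase that clamps the ends, was highest of the group at 8.12 FPKM and read 57.7, 61.5 and 57.1 CPM in the fresh libraries and 81.8, 88.4 and 79.8 CPM in the vitrified–warmed libraries. Every vitrified–warmed library lay above every fresh library, with a change of 0.50 ± 0.059 on the log2 scale (standard error) and an adjusted p of 2.79e-06 in edgeR. Mre11a, the nuclease of the same complex, went from 40.02 to 30.7 CPM on average and had a log2 fold change of -0.38 (adjusted p = 7.12e-04), and Nbn, the third subunit, had -0.31 (adjusted p = 0.0543) and was not past the test, though it was without Fresh 1 (-0.39, adjusted p = 0.0278), and limma called it under either pseudocount on FPKM (adjusted p = 0.00533 and 0.00525). Rbbp8, which starts the trimming of ends together with this complex, fell by 0.37 (adjusted p = 9.85e-04 in edgeR). Within a library, where no scaling enters, the ratio of Rad50 to Mre11a fragments per exon base was 1.57, 1.84 and 1.64 in the fresh libraries and 2.79, 3.58 and 3.01 in the vitrified–warmed libraries. The ratio of Mre11a to Nbn was 1.43 ± 0.228 in fresh and 1.34 ± 0.0796 in vitrified–warmed libraries (SD, n = 3 each). The first ratio separated the groups and the second overlapped between them. These ratios, like the others given below, were chosen after the values of the single genes were seen.

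Of the histone variant that marks broken chromatin and its readers, 3 of 4 genes were called higher and none lower, where 31.6% of all genes tested were higher and 32.8% lower. H2afx encodes the H2A variant that ATM phosphorylates around a break, and at 60.3 FPKM it was the most abundant of the 42 genes per exon length. It read 114, 120.0 and 119 CPM in the fresh libraries and 156, 164 and 163 CPM in the vitrified–warmed libraries. The groups were apart, with a change of 0.45 ± 0.044 on the log2 scale (standard error) and an adjusted p of 4.78e-07 in edgeR. Trp53bp1, which encodes 53BP1, a reader that shields ends from trimming, had a log2 fold change of 0.49 (adjusted p = 3.96e-05 in edgeR) and went from 30.2 to 42.5 CPM. Mdc1, which binds the phosphorylated histone, rose by 0.20 (adjusted p = 0.0133 in edgeR), a call that was lost without Cryo 1 (adjusted p = 0.0642) and with limma on FPKM. Rif1 acts with 53BP1 and also times replication, and its level was 458 ± 12.4 CPM in fresh and 468 ± 28 CPM in vitrified–warmed blastocysts (SD, n = 3 each). It was not past the test (log2 fold change 0.034, adjusted p = 0.509), and after a correction for exon length its log2 fold change was -0.15 (adjusted p = 0.0162). Of the exon bases of Trp53bp1, 15.4% are shared with Tubgcp4 on the opposite strand, which had a log2 fold change of -0.53. Whether the counting used strand is not given in the sources used here.

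Of the end joining genes, 5 of 6 were called lower and none higher, where 32.8% of all genes tested were lower and 31.6% higher. Xrcc5 and Xrcc6 encode the Ku80 and Ku70 subunits of the ring that slides onto a broken end. Xrcc5, the highest of the group at 4.83 FPKM, read 26.7, 28.4 and 28.8 CPM in the fresh libraries and 17.6, 19.6 and 20.8 CPM in the vitrified–warmed libraries. The groups did not overlap, with a change of -0.53 ± 0.093 on the log2 scale (standard error) and an adjusted p of 1.23e-04 in edgeR. Xrcc6 fell by 0.44 (adjusted p = 0.00198 in edgeR), and the ratio of Xrcc5 to Xrcc6 per exon base overlapped between the groups, at 1.31, 1.6 and 1.59 in the fresh libraries and 1.45, 1.27 and 1.5 in the vitrified–warmed libraries. Prkdc, the catalytic subunit that Ku recruits, read 48.7, 44 and 44.3 CPM in the fresh libraries and 28, 25.4 and 31.6 CPM in the vitrified–warmed libraries. This is a 1.61-fold fall, with a change of -0.68 ± 0.085 on the log2 scale (standard error) and an adjusted p of 5.08e-06 in edgeR. Lig4, the ligase that seals the joined ends, read 13, 13 and 13.6 CPM in the fresh libraries and 6.33, 5.96 and 7.63 CPM in the vitrified–warmed libraries. The fresh libraries lay close together and well above every vitrified–warmed library, a 1.98-fold fall with a change of -0.98 ± 0.14 on the log2 scale (standard error) and an adjusted p of 1.64e-05 in edgeR. Dclre1c, the Artemis nuclease that opens hairpin ends, had a smaller fall of 0.26 (adjusted p = 0.00713 in edgeR). Xrcc4, the scaffold that holds the ligase, read 18.4, 13.1 and 15.2 CPM in the fresh libraries and 17.6, 12.5 and 17.7 CPM in the vitrified–warmed libraries. Its groups overlapped and the test was not passed (log2 fold change 0.047, adjusted p = 0.8), and the ratio of Xrcc4 to Lig4 per exon base was 2.72, 1.95 and 2.16 in the fresh libraries and 5.37, 4.04 and 4.49 in the vitrified–warmed libraries. No exon base of Prkdc or Lig4 is shared with another annotated gene, and 7.68% of those of Xrcc6 are shared with Desi1, which had a log2 fold change of -0.98. Tmem167, on the opposite strand, shares 6.58% of the exon bases of Xrcc4 and had a log2 fold change of -0.24.

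**Figure D2:**
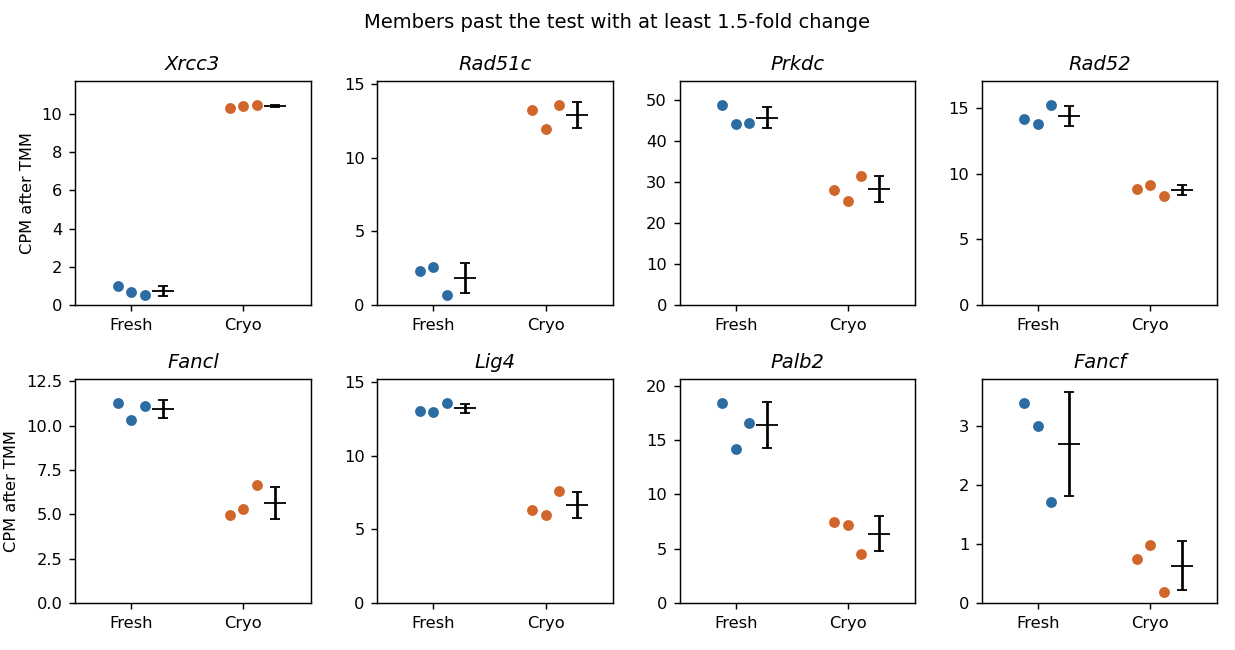
CPM after TMM scaling in each library for the 8 repair genes past the test with at least a 1.5-fold change and a mean above 0.5 FPKM. Points are libraries, in blue for fresh and orange for vitrified–warmed, and black bars give the mean and SD of 3 libraries. In each gene the groups are apart, from 0.743 against 10.4 CPM for Xrcc3 to 2.7 against 0.633 CPM for Fancf.

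On the axis that brings BRCA2 to resected DNA, Palb2 fell while Brca1 and Brca2 were slightly higher. Palb2 bridges BRCA1 and BRCA2 and lies at chr7:122107262-122132980 of GRCm38. It read 18.4, 14.1 and 16.6 CPM in the fresh libraries and 7.45, 7.16 and 4.52 CPM in the vitrified–warmed libraries. Every vitrified–warmed library lay below every fresh library, a 2.59-fold fall with a change of -1.37 ± 0.17 on the log2 scale (standard error) and an adjusted p of 6.80e-06 in edgeR. Brca1, which directs repair toward recombination, was highest of the group at 6.89 FPKM and read 67.4, 67.2 and 73.1 CPM in the fresh libraries and 89.3, 86.3 and 82.6 CPM in the vitrified–warmed libraries. All vitrified–warmed libraries were above all fresh ones, with a change of 0.31 ± 0.056 on the log2 scale (standard error) and an adjusted p of 1.53e-04 in edgeR. Brca2, which acts at resected DNA in recombination, rose by 0.17 (adjusted p = 0.00599 in edgeR), and Bard1, the partner of BRCA1 in its ubiquitin ligase, had 0.037 (adjusted p = 0.735) and was not past the test. The calls of Brca1 and Brca2 were lost with limma on FPKM (adjusted p = 0.0663 and 0.929), and that of Brca2 also after a correction for exon length (adjusted p = 0.388). Ratios within a library come from the same counts and restate the unequal change of the axis without scaling between libraries. The ratio of Brca2 to Palb2 per exon base was 1.97, 2.76 and 2.28 in the fresh libraries and 5.62, 5.77 and 9.67 in the vitrified–warmed libraries. Its lowest vitrified–warmed value was above the highest fresh value, as in the ratio of Brca1 to Palb2, which went from 2.55 ± 0.336 to 8.44 ± 2.15 (SD, n = 3 each). Of the Palb2 exon bases, 5.64% are shared with an annotated antisense gene.

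Xrcc3 and Rad51c showed the largest changes of the 42 genes. The proteins they encode act in the strand exchange step of recombination. Rad51b, Rad51c, Rad51d and Xrcc2 make up a complex, and Rad51c also pairs with Xrcc3 in a smaller one. Xrcc3 (chr12:111803192-111813841 of GRCm38, minus strand) read 1.01, 0.707 and 0.513 CPM in the fresh libraries and 10.3, 10.4 and 10.5 CPM in the vitrified–warmed libraries, from 11, 8 and 6 fragments and 111, 96 and 118 fragments. Its vitrified–warmed libraries agreed closely and lay far above the fresh ones, with a change of 3.8 ± 0.24 on the log2 scale (standard error) and an adjusted p of 7.81e-09 in edgeR. Rad51c (chr11:87377607-87404954, minus strand) read 2.29, 2.56 and 0.684 CPM in the fresh libraries and 13.2, 11.9 and 13.6 CPM in the vitrified–warmed libraries, from 25, 29 and 8 and 142, 110 and 153 fragments. Fresh 3 was the lowest, and every vitrified–warmed library was far above every fresh one, with a change of 2.81 ± 0.27 on the log2 scale (standard error) and an adjusted p of 1.28e-06 in edgeR. When all genes tested were cut into 10 equal classes by mean CPM over the 6 libraries, both fell into a class of 1278 genes. In it, 5 others had a fitted rise as large as that of Xrcc3 and 12 as large as that of Rad51c. The vitrified–warmed values enter that mean, so the rise itself helped to place both genes in the class. With single libraries left out, the log2 fold change of Xrcc3 stayed between 3.58 and 4.07 and that of Rad51c between 2.4 and 3.13. On the log2(FPKM + 0.5) scale, which understates changes of low genes, they were 2.0 and 1.67. In the deposited FPKM values the means went from 0.177 to 2.2 for Xrcc3 and from 0.346 to 2.15 for Rad51c. Both genes thus passed the cut at a mean of 0.5 FPKM only through the vitrified–warmed libraries.

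The other members of these complexes had values closer to 0, a difference that was not tested. Xrcc2 rose by 0.51 (adjusted p = 0.0138 in edgeR), which was lost without Fresh 3 (adjusted p = 0.0697) or Cryo 2 (adjusted p = 0.0603) and with limma on FPKM. Rad51b and Rad51d had log2 fold changes of 0.25 and -0.019 and were not past the test (adjusted p = 0.114 and 0.891). Per exon base, the ratio of Rad51c to Rad51d was 0.354, 0.327 and 0.0963 in the fresh libraries and 1.79, 1.65 and 2.07 in the vitrified–warmed libraries. With these deposited exon lengths, Rad51c was below Rad51d in every fresh library and above it in every vitrified–warmed library. The crossing of 1 depends on the lengths, as Rad51d has 7810 exon bases there and 3714 in GENCODE M21. In fragments, Rad51c stayed below Rad51d, at 142, 110 and 153 against 184, 155 and 172 in the vitrified–warmed libraries. The ratio of Xrcc3 to Rad51c was 0.558, 0.35 and 0.951 in the fresh libraries and 0.991, 1.11 and 0.978 in the vitrified–warmed libraries, with the vitrified–warmed libraries close to 1 and just above the highest fresh library. Of the strand exchange partners, Rad54l, a motor protein on DNA, was highest of the group at 3.3 FPKM and read 22.6, 20.5 and 23.3 CPM in the fresh libraries and 11.1, 15.7 and 17.7 CPM in the vitrified–warmed libraries. The groups did not overlap, with a change of -0.57 ± 0.14 on the log2 scale (standard error) and an adjusted p of 0.00243 in edgeR. Of the Rad54l exon bases, 6.05% are shared with Lrrc41 on the opposite strand, which had a log2 fold change of -0.88. Rad52, which anneals single strands, read 14.1, 13.8 and 15.2 CPM in the fresh libraries and 8.85, 9.11 and 8.34 CPM in the vitrified–warmed libraries. It fell 1.64-fold, with a change of -0.72 ± 0.12 on the log2 scale (standard error) and an adjusted p of 1.00e-04 in edgeR.

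**Figure D3:**
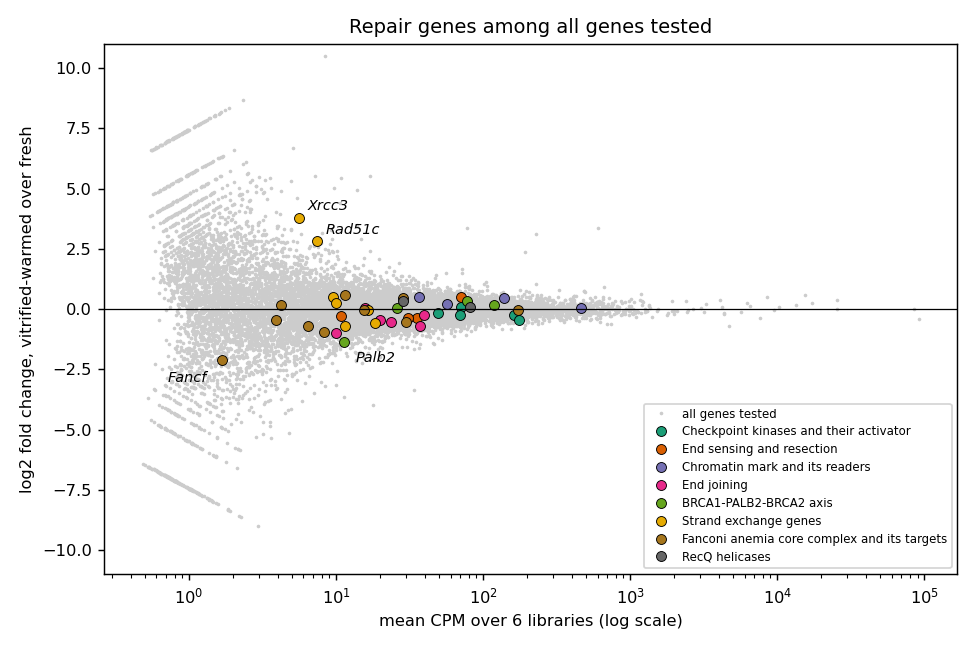
Log2 fold change against mean CPM over 6 libraries (log scale) for the 12774 genes tested, in grey, with the 42 repair genes coloured by role. The spread of all genes widens toward low CPM. Xrcc3 and Rad51c lie at the upper edge of genes of their abundance, while most repair genes lie within the bulk.

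The genes beside Xrcc3 and Rad51c did not rise with them. Zfyve21 starts 328 bases from Xrcc3 on the opposite strand and read 14.3, 13.5 and 15.7 CPM in the fresh and 6.52, 7.38 and 7.89 CPM in the vitrified–warmed libraries. Klc1 overlaps the span of Xrcc3 from the other side by 4653 bases, though only 12 exon bases of Xrcc3 are shared with it, and read 20.3, 23.1 and 24.1 CPM in the fresh and 14.7, 13.2 and 12 CPM in the vitrified–warmed libraries. Both fell, with log2 fold changes of -1.0 and -0.76 (adjusted p = 1.02e-05 and 2.59e-05 in edgeR). Tex14, which is read away from Rad51c and lies 95 bases from it, fell by 0.89 (adjusted p = 0.0439 in edgeR). Its level was low, at 2.57, 2.03 and 2.22 CPM in the fresh and 1.02, 1.30 and 1.33 CPM in the vitrified–warmed libraries. No exon base of Rad51c is shared with another annotated gene. Palb2 and Prkdc, which fell, likewise have a gene read the other way within 60 bases, and these neighbours, Dctn5 and Mcm4, rose by 0.21 and 0.11 (adjusted p = 0.017 and 0.0343 in edgeR).

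**Figure D4:**
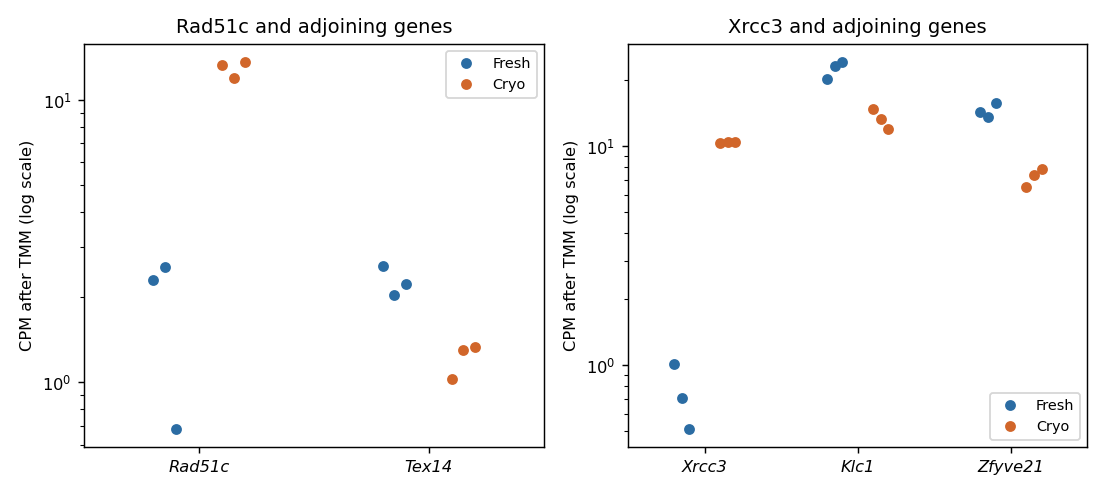
CPM after TMM scaling (log scale) in each library for Rad51c and Xrcc3 and for the genes that adjoin them, with fresh libraries in blue and vitrified–warmed libraries in orange. Orange points are above blue points for Rad51c and Xrcc3 and below them for Tex14, Klc1 and Zfyve21.

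The promoters of the genes with the largest rises and falls are shown because each lies next to a gene that moved less or the other way. They run from 250 bases before to 50 after the start in RefSeq on GRCm38.p6, all on the minus strand. Capitals mark CCAAT on either strand, which is the box bound by NF-Y, and letters of the site of the cell cycle factor E2F on either strand, searched as TTTCCCG, as the variant spelled TTTGGCG and as the variant spelled TTTCGCG. The windows are chr12:111813830-111814129 for Xrcc3, chr11:87404905-87405204 for Rad51c, chr7:51862218-51862517 for Fancf and chr7:122132897-122133196 for Palb2.
Xrcc3: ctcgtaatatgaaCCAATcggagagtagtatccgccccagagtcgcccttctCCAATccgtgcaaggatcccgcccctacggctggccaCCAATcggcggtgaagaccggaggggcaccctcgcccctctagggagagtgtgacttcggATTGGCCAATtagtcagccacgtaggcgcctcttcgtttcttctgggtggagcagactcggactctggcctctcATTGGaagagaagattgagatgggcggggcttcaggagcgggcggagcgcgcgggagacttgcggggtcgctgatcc
Rad51c: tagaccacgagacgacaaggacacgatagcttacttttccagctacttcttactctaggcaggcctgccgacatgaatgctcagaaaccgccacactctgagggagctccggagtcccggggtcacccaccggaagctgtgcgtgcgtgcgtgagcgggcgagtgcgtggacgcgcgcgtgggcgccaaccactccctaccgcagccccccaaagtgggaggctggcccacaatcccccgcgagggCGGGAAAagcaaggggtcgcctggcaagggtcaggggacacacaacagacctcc
Fancf: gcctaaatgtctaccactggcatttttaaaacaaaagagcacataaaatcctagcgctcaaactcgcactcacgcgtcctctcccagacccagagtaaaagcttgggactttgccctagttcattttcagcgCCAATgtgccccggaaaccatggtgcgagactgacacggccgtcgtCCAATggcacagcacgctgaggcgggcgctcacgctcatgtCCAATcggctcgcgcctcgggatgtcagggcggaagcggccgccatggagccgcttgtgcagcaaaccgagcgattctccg
Palb2: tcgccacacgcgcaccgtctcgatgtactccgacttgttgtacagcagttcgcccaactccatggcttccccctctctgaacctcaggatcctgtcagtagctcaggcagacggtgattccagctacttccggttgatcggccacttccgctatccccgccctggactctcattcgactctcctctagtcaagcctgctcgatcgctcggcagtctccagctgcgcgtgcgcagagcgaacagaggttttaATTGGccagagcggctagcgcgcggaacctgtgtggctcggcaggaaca
The Xrcc3 window holds 6 CCAAT matches, of which a pair lies back to back, and no E2F match. Such a number was reached by 0.0791% of all 32851 promoter windows. The Rad51c window holds 1 E2F match and no CCAAT, so the windows of Xrcc3 and Rad51c share no match. Fancf has 3 CCAAT matches and Palb2 1, and neither has an E2F match.

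Promoter windows were found for 32 of the 42 genes, 36 windows in all. An E2F match was present in 13 of them (36.1%), against 5.58% of all promoter windows, and a CCAAT match in 21 (58.3%), against 37.4%. The CHR element, spelled TTTGAA or, in another form, TTCGAA and searched on both strands because the element occurs in cell cycle promoters, was present in 3 (8.33%), against 19.2%. The median GC content was 59.8% in the repair genes and 52.7% in all windows. The genes with an E2F match were Bard1, Brca2, Chek1, Chek2, Fancg, Mdc1, Rad51b, Rad51c, Topbp1, Trp53bp1 and Xrcc6. Of these, Brca2, Mdc1, Rad51c and Trp53bp1 were called higher, Chek2, Topbp1 and Xrcc6 lower, and the others neither. These matches are descriptions of the letters only.

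Of the Fanconi anemia genes, 4 of 10 were called lower and 2 higher, 60% in all and thus near the 64.4% of all genes tested. The core complex attaches ubiquitin to the pair FANCD2 and FANCI, which then stay on the crosslinked DNA. Fancm, the motor protein that brings the core complex to a fork, was highest of the group at 11.1 FPKM and read 168, 183 and 181 CPM in the fresh libraries and 169.8, 166 and 175 CPM in the vitrified–warmed libraries. The groups overlapped and it was not past the test (log2 fold change -0.057, adjusted p = 0.281). Fancf, an adaptor of the core complex (chr7:51860577-51862267), read 3.4, 3 and 1.71 CPM in the fresh libraries and 0.745, 0.976 and 0.177 CPM in the vitrified–warmed libraries, from 37, 34 and 20 and 8, 9 and 2 fragments. The groups did not overlap, and the fall was 4.31-fold, with a change of -2.11 ± 0.50 on the log2 scale (standard error) and an adjusted p of 0.00171 in edgeR. It rests on the fewest fragments of the 42 genes, the median log2 fold change in its class of abundance was 0.30, and with single libraries left out it ranged from -2.53 to -1.63. On the log2(FPKM + 0.5) scale it was -1.08. Fancf passed the cut at a mean of 0.5 FPKM only through the fresh libraries, with 1.01 FPKM there and 0.208 FPKM in the vitrified–warmed libraries. Fancl, the ubiquitin ligase subunit, read 11.3, 10.3 and 11.1 CPM in the fresh libraries and 4.94, 5.31 and 6.65 CPM in the vitrified–warmed libraries. It fell 1.93-fold, with a change of -0.95 ± 0.15 on the log2 scale (standard error) and an adjusted p of 6.61e-05 in edgeR. Fancb, its partner in the catalytic module, rose by 0.58 (adjusted p = 0.00291 in edgeR, 0.0603 with limma on log2(FPKM + 0.5)), and the ratio of Fancb to Fancl per exon base was 0.462, 0.387 and 0.473 in the fresh libraries and 1.248, 1.34 and 1.24 in the vitrified–warmed libraries. Fancb was thus below Fancl in each fresh library and above it in each vitrified–warmed library.

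The ubiquitin targets of the core complex parted as well. Fancd2 went from 35.2 to 24.6 CPM and had a log2 fold change of -0.52 (adjusted p = 2.42e-04 in edgeR), while Fanci went from 24.1 to 32.8 CPM with 0.45 (adjusted p = 3.19e-04 in edgeR). Their ratio, Fanci to Fancd2 per exon base, was 0.822, 0.616 and 0.727 in the fresh libraries and 1.51, 1.28 and 1.38 in the vitrified–warmed libraries. The groups did not overlap in this ratio. That it crossed 1 depends on the exon lengths, as Fancd2 has 5534 exon bases in the deposited annotation and 7937 in GENCODE M21. Of the other core genes, Fancc fell by 0.70 (adjusted p = 0.00217 in edgeR) at a mean of 0.445 FPKM, and Fanca, Fance and Fancg had log2 fold changes of -0.048, -0.47 and 0.18 and were not past the test (adjusted p = 0.761, 0.0877 and 0.48). Genes on the opposite strand share 16.9% of the exon bases of Fanci (Polg, log2 fold change -0.76), 19.1% of Fancl (Vrk2, -0.36) and 15% of Fancf (Gas2, -0.66). They also share 19.8% of Fancc, mostly with Gm16133, and 10.5% of Fanca (Zfp276, -0.63). Polg fell while Fanci rose, whereas Vrk2 and Gas2 fell along with Fancl and Fancf.

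**Figure D5:**
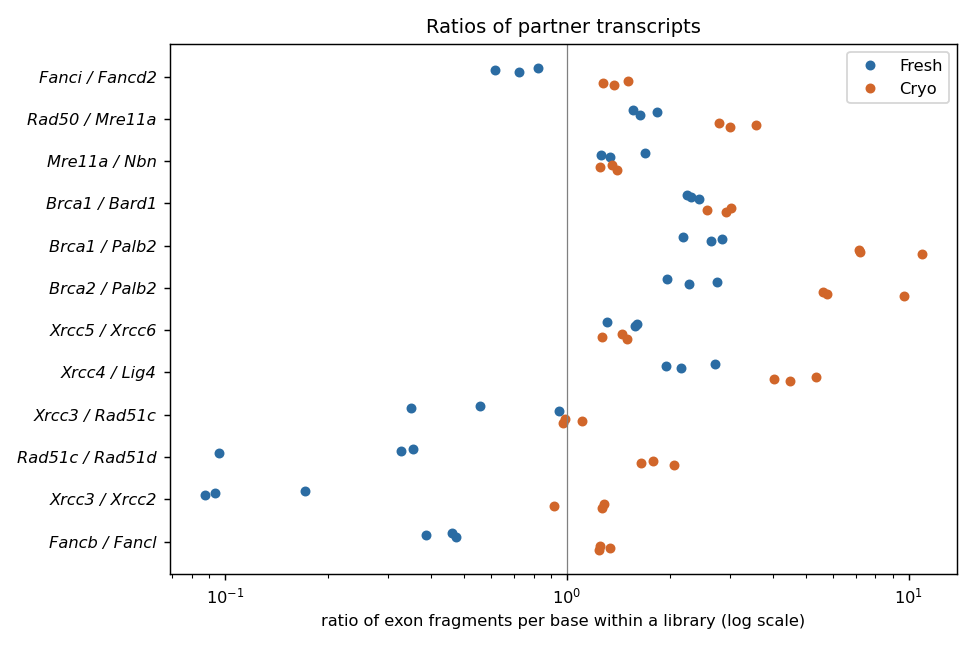
Ratio of exon fragments per exon base between partner transcripts within each library, on a log scale, with fresh libraries in blue and vitrified–warmed libraries in orange. The ratios of Mre11a to Nbn and Xrcc5 to Xrcc6 overlap between groups, while those of Fanci to Fancd2, Fancb to Fancl and Rad51c to Rad51d cross 1. For Fanci to Fancd2 and Rad51c to Rad51d, the crossing of 1 depends on the deposited exon lengths.

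Of the RecQ helicases, which unwind joined DNA molecules left by recombination, Blm and Wrn changed by less than 1.5-fold. Blm, the higher at 9.71 FPKM, read 76.3, 80.1 and 79.6 CPM in the fresh libraries and 87.2, 80.8 and 81.1 CPM in the vitrified–warmed libraries. The vitrified–warmed libraries were just above the fresh ones, and the test was not passed (log2 fold change 0.078, adjusted p = 0.21). Wrn, which is also an exonuclease, was called higher with a log2 fold change of 0.32 (adjusted p = 0.0222), and its libraries overlapped. The call of Wrn was lost without Fresh 2, Cryo 1 or Cryo 3 (adjusted p = 0.11, 0.0648 and 0.0881) and with limma on FPKM. Among the further repair genes described below, the RecQ helicase Recql4 rose 2.05-fold (log2 fold change 1.03, adjusted p = 2.79e-05 in edgeR). It read 5.05, 6.1 and 5.73 CPM in the fresh libraries and 11.5, 13 and 10.2 CPM in the vitrified–warmed libraries. Recql and Recql5 had 0.045 and -0.25 and were not past the test (adjusted p = 0.801 and 0.0938).

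Of 84 further repair genes, 19 were called higher and 29 lower after warming, 57.1% in all and thus below the 64.4% of all genes tested, with a median log2 fold change of -0.076. The largest falls were in Poll and Polm, polymerases that fill gaps in end joining, and in Mus81, a nuclease that cuts branched DNA. Poll read 11.9, 10.9 and 9.49 CPM in the fresh libraries and 3.54, 4.01 and 2.04 CPM in the vitrified–warmed libraries. Its level went down 3.4-fold with no overlap (log2 fold change -1.77, adjusted p = 2.88e-06 in edgeR), and Polm and Mus81 had -1.35 and -1.09 (adjusted p = 2.51e-06 and 1.67e-04). The largest rises were in Zswim7, which acts in recombination, in Brip1, the helicase that binds BRCA1, and in Telo2, which stabilises ATM, ATR and related kinases. Brip1 read 15, 17.1 and 15.7 CPM in the fresh libraries and 38.7, 33.8 and 37 CPM in the vitrified–warmed libraries. The groups were far apart, with a change of 1.19 ± 0.092 on the log2 scale (standard error) and an adjusted p of 4.77e-08 in edgeR, and Zswim7 and Telo2 had 1.4 and 1.06 (adjusted p = 1.99e-05 and 0.00759). Telo2 had a mean of 0.503 FPKM, from 28, 17 and 23 fragments in the fresh and 57, 24 and 52 in the vitrified–warmed libraries. Its value in Cryo 2, 2.60 CPM, was just above that in Fresh 1, 2.57 CPM. Its mean passed 0.5 FPKM only through the vitrified–warmed libraries, with 0.652 FPKM there and 0.354 FPKM in the fresh libraries.

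Some genes of this list bear on the results above and were picked after their values were seen. The subunits of RPA, which coats single-stranded DNA, were higher in 3 of 3 cases, where 31.6% of all genes tested were higher. Their log2 fold changes were 0.21, 0.44 and 0.38 for Rpa1, Rpa2 and Rpa3 (adjusted p = 0.00875, 3.79e-05 and 0.0014 in edgeR). Atrip, the partner that takes ATR to RPA, fell by 0.96 (adjusted p = 1.57e-04 in edgeR). In the sliding clamp that acts with TOPBP1, Rad9a and Rad1 fell by 0.84 and 0.50 (adjusted p = 1.08e-05 and 0.00528 in edgeR), and Hus1 had -0.12 (adjusted p = 0.156). Of other checkpoint genes in the list, Rad17, Timeless and Tipin fell by 0.64, 0.81 and 0.45 (adjusted p = 2.20e-05, 4.83e-07 and 1.11e-06 in edgeR). Clspn rose by 0.21 (adjusted p = 0.00297 in edgeR), and Etaa1 had 0.063 (adjusted p = 0.395 in edgeR). Aplf, an end joining scaffold, fell by 1.03 (adjusted p = 8.45e-05 in edgeR), while Nhej1, which bridges the ends with Xrcc4, had 0.34 (adjusted p = 0.42).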

How the data were processed

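RNA from blastocysts was made into libraries with the Ovation SoLo RNA-Seq kit and sequenced as paired ends. The authors trimmed reads, aligned them to GRCm38 and counted exon fragments per gene in CLC Genomics Workbench, and deposited these counts without normalization, with FPKM values that the authors derived from them. Gene, exon and transcript numbers come from the authors' annotation, whose release is not given in the sources used here. Columns with the authors' fold changes and p-values were not used, and 8 rows without a gene name were dropped.

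Low counts were removed by filterByExpr, and the robust quasi-likelihood test of edgeR 4.0.16, with TMM factors, ran in R 4.3.3 over 12774 genes. The test was also run on simulated libraries, with few genes changed, in both directions and all above a mean of 0.5 FPKM. There it recovered 46%, 74%, 96% and 96% of genes changed by 1.25-fold, 1.5-fold, 2-fold and 4-fold, with 12 false calls in 12226 genes. Far more genes were called in the data, so these rates may not hold for them. Exon overlaps come from GENCODE M21. Genes selected for full values were those past the test with at least 1.5-fold and a mean above 0.5 FPKM, and the highest of each role. Of the further genes, up to 3 per direction were selected. The CPM of each library is given for the selected genes except Polm, Mus81, Zswim7 and Telo2. It is also given for Atm, Xrcc4 and Recql4, which fall outside this rule, and for the genes beside Xrcc3 and Rad51c. Members and lists were chosen with earlier results of these data known. Alternatives used DESeq2 1.42.0, limma 3.58.1, other scalings and filters, a correction for exon length, a replicate block and single libraries left out. Libraries of a group differed by more than counting noise (chi-square per degree of freedom 1.55 to 4.63). Of 87 further genes listed, 84 were matched by symbol, 1 gene is not reported here, and protein sequences were not used here.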

Additional observations from a re-analysis of the deposited data

How the results depend on the processing

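The 8 genes past 1.5-fold kept direction and call in all 111 refits, with Fancf absent only where genes had to exceed 1 FPKM. Of 418 refits of the 30 called genes, 391 kept the call, 25 in 7 genes lost it and 2 reversed. The reversals were of Brca2 with limma on log2(FPKM + 0.5) (-0.0057) and on log2(FPKM + 0.1) (-0.0061). On these unscaled FPKM scales the median of all genes lay at -0.13 and -0.16, and genes not past the test also changed sign, namely Bard1 (-0.11 and -0.13), Blm (-0.090 and -0.093), Chek1 (-0.092 and -0.095), Rif1 (-0.14 and -0.14) and Xrcc4 (-0.13 and -0.14). There 6 repair genes were higher under either pseudocount, further repair genes had 7 higher under either, and all genes had 2647 higher with 0.5. After the correction for exon length Fanca had 0.022, Rad51b -0.019 and Rif1 -0.15. Rad51d had 0.012 with housekeeping scaling and 0.016 with only genes above 1 FPKM, where 2790 of all genes were lower, fewer genes being tested. With single libraries left out, the ranges were -0.031 to 0.11 for Bard1, -0.12 to 0.084 for Fanca, -0.085 to 0.054 for Rad51d and -0.063 to 0.19 for Xrcc4, among which Bard1 had -0.031 and Fanca 0.084 without Cryo 2, Rad51d 0.054 without Fresh 2 and 0.050 without Cryo 3, and Xrcc4 -0.063, -0.016 and -0.020 without Fresh 2, Cryo 1 and Cryo 3. The count of repair genes then ranged from 10 to 12 higher and from 17 to 18 lower, and of further repair genes from 13 to 23 higher and from 27 to 30 lower. Of 166 refits of the 12 genes not past the test, 10 in 6 genes passed it in the same direction, namely Fancm (adjusted p = 0.00666 and 0.0068), Fance (0.0116 and 0.0112) and Nbn (0.00533 and 0.00525) with limma, Blm (0.0258) and Chek1 (0.0235) after the length correction, Nbn without Fresh 1 (0.0278) and Rif1 without Cryo 2 (0.0383). The cause of these changes was not tested. The shared replicate numbers did not pair the libraries (correlations of deviations -0.0116, -0.0292 and 0.0330). With the number as a replicate block, 12 repair genes were higher and 18 lower, 3890 and 4073 of all genes and 18 and 29 of the further repair genes.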
